A study of Mus musculus with 6 samples.

Results

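*Asb2*, the partners with which its protein forms a cullin ubiquitin ligase, and *Flna*, which encodes a substrate of that ligase, were followed in activated splenic B cells that carried or lacked the aryl hydrocarbon receptor (AhR). The 7 genes, *Asb2*, *Cul5*, *Rnf7*, *Tceb1*, *Tceb2*, *Skp2* and *Flna*, were taken by name from the 23420 genes of the count table, and all 7 were among the 13682 genes tested. *Asb2* was chosen by its normalized counts and fold change, which differed strongly between the genotypes in these same libraries, and the other genes were added to it for their place in the ligase with those results known. The values of all 7 are therefore a description, without a test.

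The libraries were polyA RNA-seq of B lymphocytes from the spleen, 3 from Ahr+/+ and 3 from Ahr-/- mice on the C57Bl/6J background, over 8 weeks of age by the study's general methods. The Ahr-/- line is a germline knockout, so AhR was missing in every cell of the mouse and not in B cells alone. The study's strain name for this line gives a second strain of origin beside C57Bl/6J. All 6 cultures, of both genotypes, were kept for 8 h in IMDM with 5% FCS, with anti-IgM (10 μg/ml), which crosslinks the B-cell receptor, and IL-4 (20 ng/ml), and all received the AhR ligand FICZ (250 nM) for the last 4 h, so no culture without ligand or without activation was compared. *Ahr* itself had normalized counts of 12681, 12892 and 13953 in Ahr+/+ and 8856, 8949 and 9717 in Ahr-/- libraries, a log2 fold change of -0.52 (SE 0.047). The counts cover the whole gene and do not show which exons were read. Libraries held between 22095096 and 53648787 counts.

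ASB proteins carry ankyrin repeats, which bind a substrate, and a SOCS box, which binds elongin B and elongin C and through them the scaffold CUL5. CUL5 in turn holds the RING protein RNF7, which brings in the ubiquitin-conjugating enzyme. ASB2 is the substrate receptor that sends filamins, the proteins that crosslink actin and hold the tails of integrins, to the proteasome. It was first described as a gene induced by retinoic acid in myeloid leukaemia cells and is also a Notch target, and together with SKP2, the substrate receptor of a CUL1 ligase, it has been described to act on Janus kinases and on the E protein encoded by *Tcf3*. A ligase of this kind acts on protein, and all values here are of RNA.

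*Asb2* (ENSMUSG00000021200.14) lies on the minus strand at chr12:103321142-103356001 (mm10, GENCODE M21), spans 34860 bases and has 4 annotated transcripts whose exons together cover 3542 bases. RefSeq gives it a pair of start sites, at chr12:103356001 and chr12:103338390. The 250 bases before each start are shown because AhR and its partner ARNT bind DNA at the core GCGTG, and *Asb2* was the gene of the 7 whose RNA differed. The sequences are from RefSeq (GRCm38.p6), on the minus strand, 5′ to 3′, and end at the base before the start. The upstream start has chr12:103356002-103356251 before it and the downstream start chr12:103338391-103338640. Capitals mark CACGTG, a palindromic E-box hexamer that was looked for after the sequence had been seen.

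Asb2 upstream start: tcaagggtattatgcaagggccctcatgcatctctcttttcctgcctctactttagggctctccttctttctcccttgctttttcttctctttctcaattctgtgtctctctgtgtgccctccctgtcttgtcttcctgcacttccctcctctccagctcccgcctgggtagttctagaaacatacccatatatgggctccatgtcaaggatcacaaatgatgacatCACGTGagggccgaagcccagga

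Asb2 downstream start: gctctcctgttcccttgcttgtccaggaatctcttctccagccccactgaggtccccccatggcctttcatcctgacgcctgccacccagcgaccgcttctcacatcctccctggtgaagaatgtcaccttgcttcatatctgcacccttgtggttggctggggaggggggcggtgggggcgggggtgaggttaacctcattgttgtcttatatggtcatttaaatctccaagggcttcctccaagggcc

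Neither window, taken on both strands and with the first 50 transcribed bases included, held GCGTG. That core was found in 32.4% of the 32851 RefSeq windows of 300 bases, so many windows lack it. The longer form TNGCGTG, which contains the core, occurred in 5.07% of windows and in neither of these. The window of the upstream start held CACGTG, which shares the letters CGTG with the core, 23 bases before the start, and 7.15% of all windows held it. The window of *Cul5* also held CACGTG, among its first transcribed bases, and those given for *Rnf7*, *Tceb2*, *Skp2* and *Flna* did not. No match says only that these letters are not within these windows.

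Windows were given for 6 of the 7 genes, all but *Tceb1*. The core was present in those of *Cul5*, *Rnf7* and *Tceb2* and in none of the windows of *Skp2* and *Flna*. The match of *Rnf7* lies after the start and a second match of *Cul5* spans it, and neither is shown. Capitals mark GCGTG or its reverse complement CACGC in the matches that lie wholly before the start. These are shown with 10 bases on each side, to set them beside the *Asb2* windows. All are on the minus strand, at chr9:53667595-53667619 for *Cul5* and at chr17:23829202-23829226 and chr17:23829151-23829175 for *Tceb2*.

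Cul5, 102 bases before the start: tggggcgagcGCGTGagggctgcgc

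Tceb2, 107 bases before the start: ggccgcaacgGCGTGggaggggctg

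Tceb2, 56 bases before the start: ccgcgcagagCACGCtgggtcgcgc

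*Asb2*, the substrate receptor, was the member with the largest difference between the genotypes. Its raw counts in Ahr+/+ were 336, 438 and 307, against 4, 17 and 7 in Ahr-/-. After scaling for library size and composition the normalized counts were 326, 441 and 345 in Ahr+/+ and 6.87, 12.1 and 6.38 in Ahr-/-. The groups were far apart, and every Ahr-/- library still held more than the 3 counts taken as the floor of detection. The means were 371 ± 61.4 (SD, n = 3) and 8.44 ± 3.16 (SD, n = 3), a ratio of 43.9. Between single libraries the ratio ran from 27.0, the lowest Ahr+/+ over the highest Ahr-/- library, to 69.0 for the opposite extremes. The log2 fold change was -5.34 (SE 0.22), which placed *Asb2* at rank 9 of the 13682 tested genes ordered from the lowest fold change. The relative spread between libraries was 16.6% in Ahr+/+ and 37.4% in Ahr-/-, where the second replicate, with 17 counts, lay above the others; without it the log2 fold change was -5.79. In bulk libraries fewer cells that express a gene and less RNA per cell cannot be told apart.

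**Figure D1:**
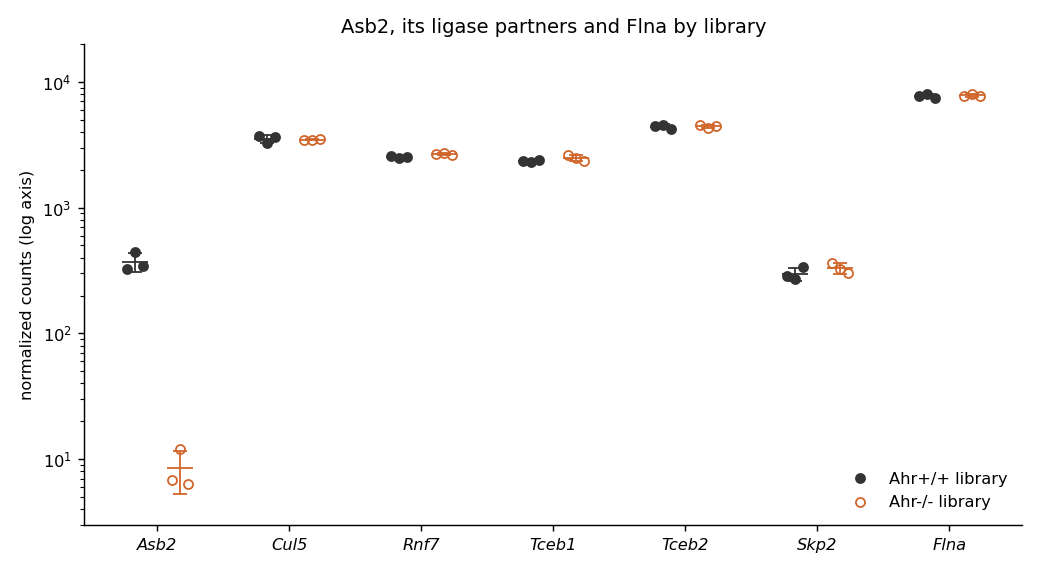
Normalized counts of the 7 genes in each of the 6 libraries on a log axis; filled points are Ahr+/+ and open points Ahr-/- libraries, with the mean as a line and bars of ± SD (n = 3). *Asb2* sat between 326 and 441 in Ahr+/+ and between 6.38 and 12.1 in Ahr-/- libraries, while the points of the other genes lay at nearly the same height in both genotypes.

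Of the 7 genes, *Asb2* passed an adjusted p of 0.05 (edgeR) and the other 6 did not, beside 17.9% of all tested genes (2453 of 13682), 8.13% lower and 9.79% higher in Ahr-/-. Normalized counts of the genotypes did not overlap for *Asb2* and *Rnf7*, beside 33.5% of all tested genes. These shares describe genes that were chosen with the contrast known, and nothing is read from them.

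The scaffold *Cul5*, on which elongins and RING protein assemble, had normalized counts of 3696, 3236 and 3644 in Ahr+/+ and 3436, 3458 and 3513 in Ahr-/-. The Ahr-/- libraries all fell inside the Ahr+/+ range. The means were 3525 ± 252 and 3469 ± 39.8 (SD, n = 3 each), and the log2 fold change was -0.02 (SE 0.049).

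*Rnf7*, the RING partner of CUL5, stood at 2594, 2470 and 2504 normalized counts in Ahr+/+ and 2660, 2738 and 2608 in Ahr-/-. All 3 Ahr-/- libraries were above all 3 Ahr+/+ libraries, by a margin as small as that between 2594 and 2608. The mean was 5.77% higher in Ahr-/- (2669 ± 65.3 against 2523 ± 64.1), with a log2 fold change of 0.08 (SE 0.039).

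*Tceb1*, now named *Eloc*, encodes elongin C, the adaptor that the SOCS box binds directly. Its normalized counts were 2341, 2324 and 2384 in Ahr+/+ and 2598, 2491 and 2366 in Ahr-/-, so that the third Ahr-/- replicate fell within the Ahr+/+ range. The log2 fold change was 0.08 (SE 0.042). *Tceb2*, now *Elob*, encodes elongin B, which pairs with elongin C. It had 4486, 4533 and 4190 against 4512, 4316 and 4467, with overlapping groups and a log2 fold change of 0.01 (SE 0.042).

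The counts of *Rnf7*, *Tceb1* and *Tceb2* carry an uncertainty from near-identical copies, of which none was found for *Asb2*, *Cul5*, *Skp2* and *Flna*. Annotated transcripts of other genes matched them at 95% identity or more over at least 100 bases: *Gm12362* and *Gm7075* for *Rnf7*, *Gm16265* for *Tceb1*, and *CT033749.1*, *Gm11598* and *Gm8971* for *Tceb2*. None of these copies has a row in the count table under these symbols. Reads of such copies could have been given to the parent gene or dropped. Genes on the opposite strand also overlap some members: the antisense gene *Gm16124* and the snoRNA *Gm22304*, which have no row in the table, overlap *Cul5*, and the abundant *Srrm2* overlaps the end of *Tceb2* by a few bases.

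*Skp2*, the F-box protein that recognises the cell cycle inhibitor p27, was the scarcest of the partners and the noisiest. Its normalized counts were 287, 269 and 337 in Ahr+/+ and 362, 323 and 303 in Ahr-/-. The ranges overlapped, the means were 297 ± 35.4 and 329 ± 30.2, and the log2 fold change of 0.14 had an SE of 0.10. *Skp2* overlaps *Lmbrd2* on the opposite strand, whose own log2 fold change was 0.07 (SE 0.071).

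*Flna*, the filamin substrate, had 7663, 7963 and 7494 normalized counts in Ahr+/+ and 7660, 8051 and 7730 in Ahr-/-. The means of 7707 ± 237 and 7814 ± 208 differed by less than either SD, and the log2 fold change was 0.02 (SE 0.039). *Flna* is X-linked, at chrX:74223461-74249820. *Xist*, which is transcribed in cells with more than a single X chromosome, was at 10.3 normalized counts or fewer in every library of both genotypes.

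Per exon length, levels can be compared between genes. The unit used is CPM, the count as a share of the effective library size, divided by the kilobases of all annotated exons joined, so a gene with long exons that these cells do not use is placed too low. In Ahr+/+ the order was *Tceb2* (81.9), *Rnf7* (49.4), *Flna* (21.3), *Tceb1* (20.2), *Cul5* (11.2), *Asb2* (2.72 ± 0.451) and *Skp2* (0.982). In Ahr-/- the means were 82.5, 52.3, 21.6, 21.4, 11.1 and 1.09 for the other genes in that order, and *Asb2* dropped to the last place with 0.0620 ± 0.023 (SD, n = 3). *Flna* and *Tceb1* could not be ordered in Ahr-/-, where their libraries overlapped; the other neighbours in the order were separated in every library of a genotype.

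**Figure D2:**
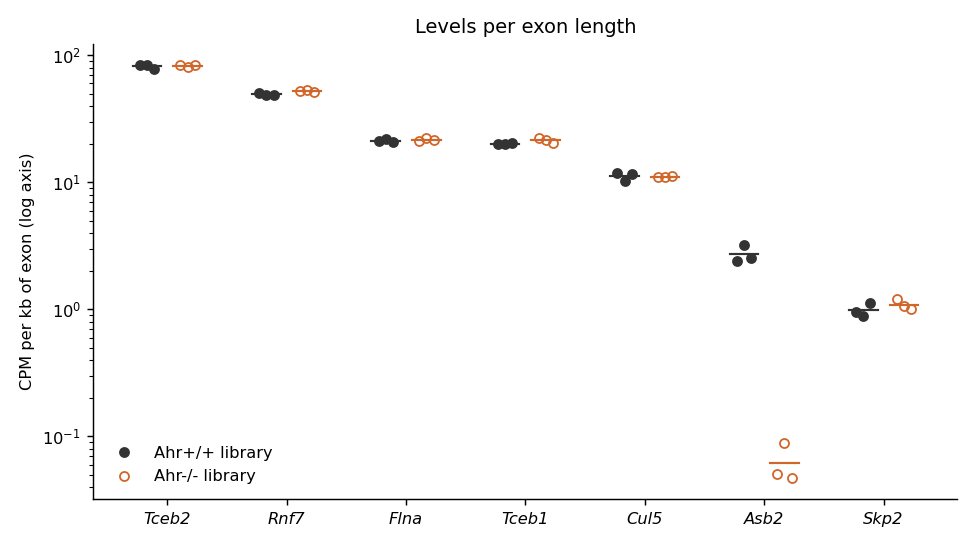
Level of each gene as CPM per kilobase of exon, on a log axis, in each of the 6 libraries; filled points are Ahr+/+, open points Ahr-/-, lines are the means of 3. *Asb2* lay above *Skp2* in Ahr+/+ (2.72 against 0.982) and below it in Ahr-/- (0.0620 against 1.09).

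Set against the scaffold in the same library, the level of *Asb2* per length was 0.245 ± 0.060 of that of *Cul5* in Ahr+/+ and 0.00562 ± 0.00212 in Ahr-/- (SD, n = 3 each). The same ratio was 4.41 ± 0.248 and 4.73 ± 0.154 for *Rnf7*, 1.80 ± 0.119 and 1.93 ± 0.112 for *Tceb1*, and 7.33 ± 0.762 and 7.46 ± 0.192 for *Tceb2*. RNA for the shared core of the ligase was thus present well above that for the receptor in both genotypes, and the proportions within the core moved by little beside that of *Asb2*. For *Skp2* the ratio was 0.0874 ± 0.00782 and 0.0985 ± 0.0101.

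The other genes of the ASB family show how *Asb2* stands among its relatives. Of 17 listed, 8 had enough counts to be tested, and none of the 8 passed an adjusted p of 0.05 by edgeR or under any of the alternative settings run, DESeq2 included, beside 17.9% of all tested genes. At an unadjusted p under 0.05 the number was 0 as well, by edgeR (29.4% of all tested genes) and by DESeq2 (24.5% of all tested genes). Their median log2 fold change was -0.04, against 0.00 over all tested genes. *Asb13*, *Asb6*, *Asb7*, *Asb8*, *Asb1* and *Asb3* were well measured, between 604 and 1728 normalized counts in every library, and their log2 fold changes lay between -0.05 and 0.08. *Asb5* and *Asb14*, at 16.5 normalized counts or fewer in every library, had log2 fold changes of -0.36 (SE 0.43) and -1.02 (SE 0.68). *Asb2* held 5.06%, 6.83% and 5.44% of all normalized counts of the family in Ahr+/+ and 0.111%, 0.204% and 0.105% in Ahr-/-. The summed counts of its relatives were 5997 to 6124 in Ahr+/+ and 5914 to 6163 in Ahr-/-, and the ranges overlapped. By mean level per length *Asb2* was at rank 7 of 18 family genes in Ahr+/+ and 8 of 18 in Ahr-/-, since the genes below it are hardly detected in either genotype. Its libraries overlapped those of *Asb1* and *Asb3* in Ahr+/+ and those of *Asb5* and *Asb14* in Ahr-/-, so it could not be ordered against these.

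**Figure D3:**
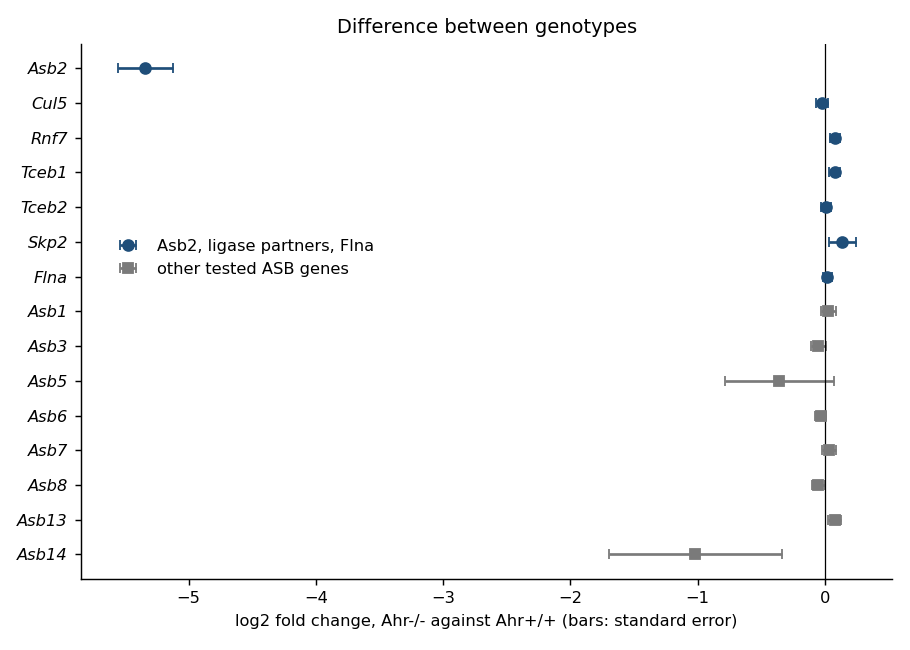
Log2 fold change of Ahr-/- against Ahr+/+ with its standard error for the 7 genes (circles) and the 8 other ASB genes that could be tested (squares). *Asb2* stood at -5.34, and of the others *Asb5* and *Asb14*, both with few counts, lay farthest from 0.

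Substrates described for ASB2 other than filamin A were looked at next. *Jak2*, a kinase of cytokine receptors, had 12614, 10986 and 11153 normalized counts in Ahr+/+ and 4116, 4267 and 4229 in Ahr-/- libraries. It was lower in Ahr-/-, with a log2 fold change of -1.46 (SE 0.052, adjusted p = 1.2e-09 by edgeR over all tested genes). The related *Jak3* did not pass the test, with a log2 fold change of -0.03 (SE 0.061, adjusted p = 0.81). Nor did *Tcf3*, at 0.12 (SE 0.043, adjusted p = 0.073), or *Mll1*, a histone methyltransferase gene now named *Kmt2a*, at -0.07 (SE 0.045, adjusted p = 0.31). *Tcf3* passed with scaling by library size alone (adjusted p = 0.029) and without the second Ahr+/+ replicate (adjusted p = 0.043). Of 6 genes on this list 4 were tested and 1, *Jak2*, changed (25.0%, beside 17.9% of all tested genes). *Flnc*, the muscle filamin, had no counts in any library.

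Among 17 genes of filamins and proteins that bind them, 15 were tested, 4 were higher and 2 lower in Ahr-/- (40.0%, beside 17.9% of all tested genes), and the median log2 fold change was 0.01. Integrin tails are bound by filamin, and the integrin genes in the list did not move one way. *Itgb1* had 3609, 3624 and 3743 normalized counts in Ahr+/+ and 4720, 4884 and 4563 in Ahr-/-, a log2 fold change of 0.37 (SE 0.040, adjusted p = 3.1e-05). *Itgb2* rose by 0.24 on the log2 scale (SE 0.043, adjusted p = 0.0017), and *Itgb7* fell by 0.62 (SE 0.13, adjusted p = 0.0063). *Inppl1*, which encodes the inositol phosphatase SHIP2, rose by 0.72 (SE 0.060, adjusted p = 3.0e-06), and *Arhgap24*, a filamin-binding regulator of Rac, by 0.39 (SE 0.070, adjusted p = 0.0017). *Fam101a*, at 7.86 normalized counts or fewer in every library, was lower by edgeR (adjusted p = 0.015) but not by DESeq2 (adjusted p = 0.096), nor by edgeR without the third Ahr+/+ or the second Ahr-/- replicate (adjusted p = 0.051 and 0.086).

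Genes of the pathways known to induce *Asb2* made up the list with the largest share of changed genes among the 9 examined. Of 11 genes of the retinoid and Notch pathways 10 were tested, 6 were lower and none higher in Ahr-/- (60.0%, beside 17.9% of all tested genes), with a median log2 fold change of -0.71. On the retinoid side *Rara*, a retinoic acid receptor, had 4985, 5338 and 5024 normalized counts in Ahr+/+ and 2147, 2350 and 2656 in Ahr-/- libraries. The groups were well apart, with a log2 fold change of -1.10 (SE 0.064, adjusted p = 1.2e-07). The retinoid X receptors *Rxra* and *Rxrb* did not pass the test, at -0.04 (SE 0.13, adjusted p = 0.88) and 0.04 (SE 0.042, adjusted p = 0.58).

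On the Notch side the receptor *Notch1* fell from 2189, 2494 and 2405 to 1102, 1270 and 1244 normalized counts (log2 fold change -0.96, SE 0.061, adjusted p = 2.7e-07). *Rbpj*, the DNA-binding protein through which Notch acts, fell by 1.12 on the log2 scale (SE 0.042, adjusted p = 2.3e-09), and its target *Dtx1* by 1.75 (SE 0.058, adjusted p = 7.0e-10). The targets *Hes1* and *Nrarp* were lower by 0.55 and 0.87 (SE 0.13 and 0.21, adjusted p = 0.0092 and 0.011). Both these calls were lost when a single library was left out, with an adjusted p of 0.057 for *Hes1* without the second Ahr-/- replicate and of 0.051 for *Nrarp* without the second Ahr+/+ replicate. *Notch2*, the main Notch receptor of marginal zone B cells, had a log2 fold change of -0.01 (SE 0.037, adjusted p = 0.90). None of these differences was as large as that of *Asb2*.

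**Figure D4:**
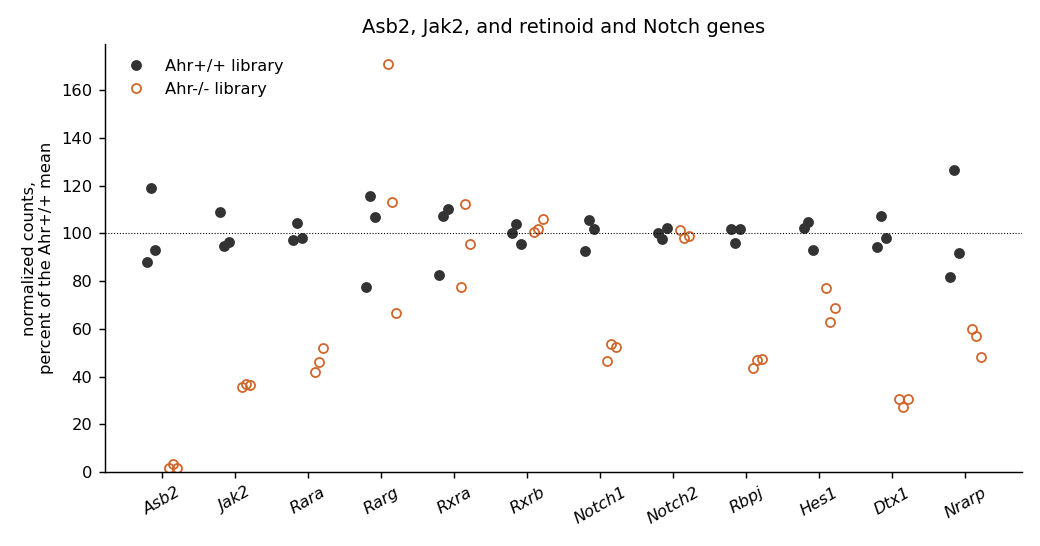
Normalized counts of *Asb2*, *Jak2* and the tested retinoid and Notch genes in each library as a percentage of the gene's Ahr+/+ mean, on a linear axis from 0; filled points are Ahr+/+, open points Ahr-/- libraries. *Asb2* lay near 0 in all 3 Ahr-/- libraries, *Jak2*, *Rara*, *Notch1*, *Rbpj*, *Hes1*, *Dtx1* and *Nrarp* lay between it and their Ahr+/+ libraries, and *Rarg*, *Rxra*, *Rxrb* and *Notch2* overlapped between genotypes.

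Of 21 other receptors with a SOCS box, which compete for the same elongins and cullins, 19 were tested, 2 were higher and 5 lower in Ahr-/- (36.8%, beside 17.9% of all tested genes; median log2 fold change -0.08). *Socs2*, a feedback inhibitor of cytokine receptors, rose by 1.02 (SE 0.13, adjusted p = 9.2e-05) and *Socs5* fell by 1.10 (SE 0.050, adjusted p = 1.0e-08). *Neurl2* and *Spsb1* fell by 1.02 and 0.70 (adjusted p = 2.1e-05 and 2.2e-04), and *Cish* by 0.34 (adjusted p = 6.5e-05). *Wsb2* passed with a log2 fold change of 0.14 and lost the call in 7 of the alternatives, with adjusted p up to 0.13 (without the first Ahr+/+ replicate). *Lrrc41* passed at -0.16 and lost the call without the third Ahr+/+ replicate (adjusted p = 0.054).

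The machinery that other cullin ligases use, and the cycle that switches cullins on, are given beside the background of 17.9%. Among 12 genes of other cullins and their partners 1 was higher and 1 lower (16.7%), *Klhdc2* by 0.51 (SE 0.040, adjusted p = 2.1e-06) and *Vhl* by -0.23 (SE 0.060, adjusted p = 0.016), a call lost without the first Ahr+/+ or the second Ahr-/- replicate (adjusted p = 0.057 and 0.066). *Rbx1*, the RING protein of the other cullins, had a log2 fold change of 0.07 (adjusted p = 0.23), and *Cul1*, the scaffold used by SKP2, of -0.09 (adjusted p = 0.14). Among 24 genes of the NEDD8 cycle, which modifies cullins, 1 was higher and 3 lower (16.7%). The number that passed fell from 4 to 2 when the first or the third Ahr+/+ or the first or the second Ahr-/- replicate was left out. *Uba3*, part of the NEDD8-activating enzyme, fell by 0.19 (adjusted p = 0.0061), and *Arih2*, a ubiquitin ligase that works with neddylated CUL5, by 0.24 (SE 0.047, adjusted p = 0.0032). Among 13 partners and substrates of SKP2 only *Cdt1*, the replication licensing factor, passed, with a fall of 0.20 (adjusted p = 0.0054; 7.69% of the list). Without the third Ahr+/+ or the first Ahr-/- replicate the number on this list was 2. *Cks1b*, the cofactor of SKP2, and *Cdkn1b*, which encodes p27, had log2 fold changes of 0.11 (adjusted p = 0.26) and -0.16 (adjusted p = 0.055). *Cdkn1b* passed with DESeq2 size factors, with the robust fit and without the first Ahr-/- replicate (adjusted p = 0.047, 0.049 and 0.038).

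**Figure D5:**
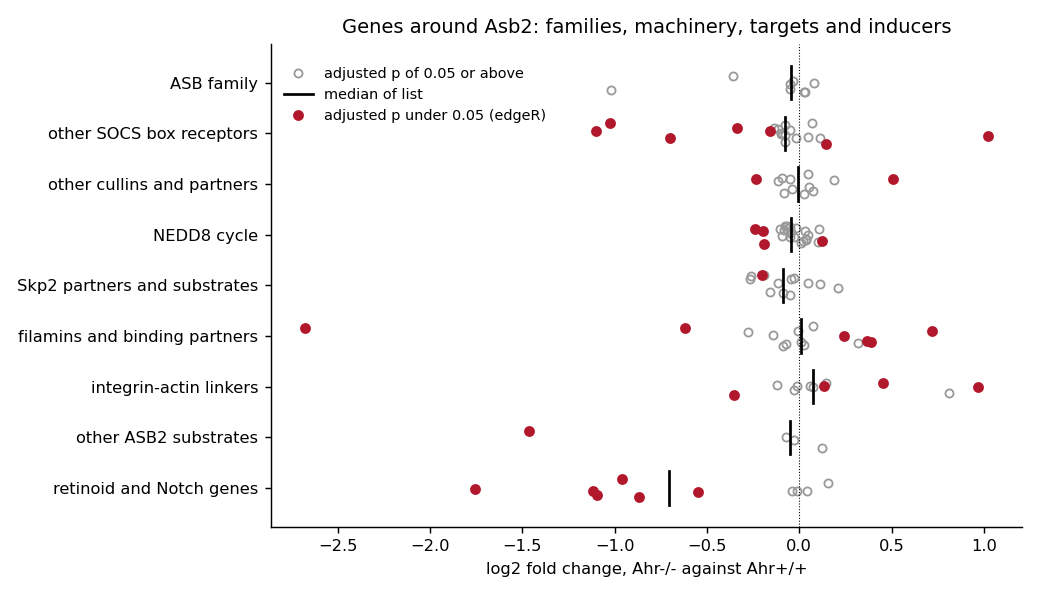
Log2 fold change of each tested gene in the 9 lists around *Asb2*; filled points passed an adjusted p of 0.05 by edgeR, open points did not, and the black line is the median of the list. The median was -0.71 for retinoid and Notch genes and between -0.09 and 0.08 for the other 8 lists.

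Over the 9 lists, 31 of 116 tested genes passed (26.7%, beside 17.9% of all tested genes), 11 higher and 20 lower. The 31 had a median absolute log2 fold change of 0.51, and 22 of them passed under every alternative setting run. The lists were drawn up with earlier results of these libraries known.

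Around *Asb2* on chromosome 12, the antisense gene *Gm15523* overlaps it on the opposite strand and has no row in the table, so reads counted without strand could not be told apart between them. The nearest neighbours with a row in the count table are *Fam181a*, 4077 bases away, which had no counts, and *Otub2*, 32681 bases away. The latter had 195, 186 and 197 normalized counts in Ahr+/+ and 182, 181 and 172 in Ahr-/-. *Otub2* had a log2 fold change of -0.11 (SE 0.099, adjusted p = 0.50). *Ddx24*, the next listed gene of the count table on that side, at 52.0 kb, was lower in Ahr-/-, with a log2 fold change of -0.15 (SE 0.047, adjusted p = 0.041). *Ahr* lies on the same chromosome at a distance of 67.8 Mb.

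The genes whose pattern over the 6 libraries was most like that of *Asb2* were found by the root mean square distance of log2 CPM, each gene centred on its own mean, over the 11756 genes whose Ahr+/+ libraries averaged 10 normalized counts or more. They were *Hic1* (distance 0.43), *Nqo1* (0.44), *Ccno* (0.49), *Pltp* (0.51) and *Tiparp* (0.53). The distance uses a prior count of 2. *Ccno* had 1, 0 and 1 raw counts in Ahr-/-, under the floor of 3, and entered through its Ahr+/+ mean. *Hic1*, a transcriptional repressor, had 2425, 2680 and 2519 normalized counts in Ahr+/+ and 106, 106 and 114 in Ahr-/-. *Tiparp*, an ADP-ribosyltransferase gene, was far more abundant, at 24958, 22991 and 24096 against 1286, 1201 and 1167. All of these had low values in the same 3 libraries, and no test was made on the likeness.

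Other cells that a B-cell preparation can hold were checked by marker lists. The 5 B-cell markers summed to 62074 to 65180 normalized counts in Ahr+/+ and 74182 to 77537 in Ahr-/-, and 4 of the 5 were higher in Ahr-/-. Over all tested genes 9.79% were higher and 8.13% lower, the background for the marker counts given here. Markers of plasmacytoid dendritic cells summed to 1537 to 1682 and 2357 to 2458, and all 5 were higher. *Pacsin1* made up most of that sum, and the other 4 summed to 329 to 364 in Ahr+/+ and 617 to 802 in Ahr-/-. *Siglech* had a mean 4.75 times and *Klk1* a mean 4.63 times as high in Ahr-/-. For conventional dendritic cells the ranges were 816 to 931 and 856 to 1039 (3 higher and 1 lower of 7). The lower gene, *Zbtb46*, made up most of that sum in Ahr+/+. It had 536, 540 and 580 normalized counts in Ahr+/+ and 424, 437 and 392 in Ahr-/-. *Itgax*, *Clec9a* and *Cd209a* had means 2.05, 3.52 and 5.62 times as high in Ahr-/-, and *Flt3*, *Xcr1* and *Batf3* did not pass the test. The ranges were 301 to 420 and 368 to 601 for NK cells (2 higher of 6). For T cells they were 5958 to 6356 and 5983 to 6894 (1 lower of 7). *Lck* made up most of the T-cell sum, and the other 6 markers summed to 128 to 248 in Ahr+/+ and 146 to 157 in Ahr-/-. The lower T-cell gene was *Cd3e*, with 35.0, 43.3 and 23.6 normalized counts in Ahr+/+ and 13.7, 14.9 and 13.7 in Ahr-/-; its part in the *Asb2* difference was not tested. Markers of monocytes and macrophages summed to 1243 to 1616 in Ahr+/+ and 707 to 1231 in Ahr-/-, with 1 of 5 lower, and the 2 neutrophil markers in the table to 34.0 to 59.4 and 10.9 to 111. The lower gene among these 5 was *Emr1*, at 654, 662 and 633 normalized counts in Ahr+/+ and 63.5, 63.3 and 35.6 in Ahr-/- (log2 fold change -3.60, SE 0.14). *Lyz2*, *Csf1r* and *Ly6c2* had overlapping groups with means 1.61, 1.47 and 1.66 times as high in Ahr-/-, and *Cd68* had 414 to 456 in Ahr+/+ and 381 to 400 in Ahr-/- without passing the test. No marker in the table was at 0 in all libraries. The monocyte and macrophage sum was the list sum whose ranges separated in the direction of *Asb2*. Without *Emr1*, a sum taken after the values had been seen, the other 4 markers gave 590 to 954 in Ahr+/+ and 671 to 1167 in Ahr-/-, which overlapped.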

How the data were processed

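Processed files came from 6 polyA RNA-seq libraries (TruSeq stranded mRNA kit, HiSeq 2000), 3 per genotype. The deposited table of raw counts per gene symbol was used as the authors made it. The submitters' processing notes name TopHat2, HTSeq, DESeq and mm10, and the strand setting of the counting is not given in the sources used here. A deposited table of normalized counts and the authors' comparison table (fold changes and p-values) were not used. The samples were labelled as replicates and, by the study, were from 3 mice per group. Libraries of a genotype differed by more than counting noise (chi-square per degree of freedom 3.80 to 8.80), so all were counted.

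Counts were scaled by TMM, and genes with at least 10 counts in total were fitted with genotype alone in edgeR 4.0.16 (quasi-likelihood test, R 4.3.3, prior count 0.125), with Benjamini-Hochberg adjustment over all 13682 genes and a threshold of 0.05. The script was tested on simulated data. Standard errors of log2 fold changes were derived from the F statistic. Normalized counts are counts divided by the effective library size and multiplied by the mean of the effective sizes. A floor of 3 counts equals 0.0555 to 0.134 CPM, which covers counting error only. Positions and exon lengths are from GENCODE M21, promoter windows from RefSeq (GRCm38.p6), and near-identical copies were sought with BLAST 2.17.0. Alternatives were other scalings, filters, prior and threshold, DESeq2 1.42.0, a robust fit, a replicate block and leaving out each library.

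The 7 genes and all lists were chosen with earlier results of these data known. Named were the 7 genes, list genes with an adjusted p under 0.05, a fixed set of list genes (*Flnc*, *Rbx1*, *Cul1*, *Cks1b*, *Cdkn1b*, *Jak2*, *Jak3*, *Tcf3*, *Kmt2a*, and 1 that is not reported here), the 5 genes most like *Asb2*, overlapping and nearest genes, and *Ahr*. *Notch2*, *Rxra*, *Rxrb*, *Rarg*, *Lmbrd2*, *Ddx24*, *Xist*, the ASB genes and marker genes were named after their values had been seen. Dispersion was shared over both groups.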

Additional observations from a re-analysis of the deposited data

How the results depend on the processing

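The log2 fold change of *Asb2* kept its sign under the 14 alternatives, between -5.79 and -5.08; a prior count of 2 gave -5.08, and leaving out single libraries gave -5.79 to -5.13, the former without the second Ahr-/- replicate. None of the other 6 genes passed the threshold in any alternative, while the log2 fold changes of *Cul5*, *Tceb2* and *Flna*, close to 0, changed sign in some. The number of changed genes was 2453, and 1473 at an adjusted p under 0.01; it was 1664 to 2601 when single libraries were left out, and 2184 with DESeq2. Of the list genes 31 passed, and 25 to 31 when single libraries were left out. Same-numbered libraries deviated together with correlations of -0.14, 0.25 and -0.16, and differently numbered libraries with -0.35 to 0.38. These values gave no sign of pairing by number. They cannot exclude it, because they are deviations from means of 3 libraries. A fit with the replicate number as a block gave 2303 changed genes and -5.40 for *Asb2*. Depth limits *Asb2* in Ahr-/-, which rests on 4 to 17 counts a library, and *Asb5*, *Asb14* and *Fam101a*.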

Other observations

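Genes that link integrins and filamins to actin, none of them part of the ligase, were divided. Of 11 tested, 3 were higher and 1 lower in Ahr-/- by edgeR (36.4%, beside 17.9% of all tested genes; median log2 fold change 0.08). *Vcl*, which encodes vinculin of focal adhesions, had 919, 888 and 883 normalized counts in Ahr+/+ and 1188, 1248 and 1245 in Ahr-/-, a log2 fold change of 0.45 (SE 0.048, adjusted p = 2.5e-05). *Fscn1*, the actin-bundling protein fascin, was scarcer, at 81.6, 96.6 and 80.9 against 173, 209 and 123 (log2 fold change 0.97, SE 0.19, adjusted p = 0.0030). *Zyx*, zyxin, fell by 0.35 (SE 0.061, adjusted p = 0.0014). *Tes*, which binds zyxin, passed with a log2 fold change of 0.13 (adjusted p = 0.024), and lost the call without the second Ahr+/+, the third Ahr+/+ or the third Ahr-/- replicate, with adjusted p of 0.051, 0.12 and 0.056. In the NEDD8 cycle, *Nedd8* itself (log2 fold change 0.12, adjusted p = 0.043) and *Dcun1d4* (-0.19, adjusted p = 0.047) passed and lost the call in 5 and 9 of the alternatives.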
